A study of Mus musculus with 12 samples.

Results

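Lung iNKT cells that carried the surface receptor CD244 were compared with lung iNKT cells that lacked it. Invariant natural killer T (iNKT) cells are T lymphocytes whose receptor recognises lipid antigens presented by CD1d. The comparison used 6 of the 12 libraries in the series, 3 of CD244-positive and 3 of CD244-negative cells, chosen by their labels. All cells were freshly sorted from mice at 6 weeks as TCRbeta+, NK1.1+, CD1d tetramer-binding and CXCR6+, and each library was made from 100 cells. The CD244+ fraction is called the C2 subset and the CD244- fraction the C1 subset in the series title, and the other 6 libraries hold the same fractions from thymus. Strain, sex and animals are not given in the sources used here, and replicates are described only as independent library preparations. P-values therefore measure the spread between these libraries, which may be technical.

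CD244 (2B4) is a receptor of the SLAM family that binds CD48 on neighbouring cells and is best known on natural killer cells and cytotoxic T cells. iNKT cells form in the thymus under the transcription factor PLZF (Zbtb16), and those with T-bet, NK1.1 and CXCR6 are known for granzymes, interferon gamma and inhibitory receptors of the Ly49 family. The lung also holds alveolar macrophages in the air spaces and interstitial macrophages in the tissue. Macrophages engulf particles, present antigen on MHC class II and are known for complement C1q, apolipoprotein E and lysosomal proteases. Transcripts known from macrophages and those known from T cells are described apart here.

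The values are molecules counted through molecular barcodes and scaled by the authors so that each lung library sums to 19342.9 units. One molecule was worth 0.376 to 0.455 units in the CD244-positive and 0.601 to 0.651 units in the CD244-negative lung libraries. The CD244-positive libraries 1, 2 and 3 held 48858, 42520 and 51436 molecules of 7298, 7293 and 7525 genes. The CD244-negative libraries held 29696, 30145 and 32196 molecules of 5622, 5825 and 5885 genes. Both counts were thus higher in each CD244-positive library than in any CD244-negative one. CD244-positive replicates also differed more from each other, by a chi-square on the counts divided by its degrees of freedom. It came to 1.65 to 1.70 for pairs of them, against 1.11 to 1.23 between CD244-negative pairs and 1.09 to 1.15 between thymus pairs. The spread shared by all libraries in the main test may therefore be too small for the CD244-positive lung group.

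The genes of the sort markers were low. Cd244 was seen as 1, 1 and 0 molecules in the CD244-positive and as 0 in each CD244-negative lung library, so its difference was not detectable at this depth. Klrb1c, which encodes NK1.1, reached 12.5, 9 and 9 molecules in CD244-positive libraries, against 12, 9 and 11 in the others. Cxcr6, the gene of the chemokine receptor used in the gate, had 15, 1 and 1 molecules against 10, 13 and 15. In units at equal totals these were 5.94, 0.455 and 0.376 against 6.51, 8.34 and 9.01, so that CD244-positive library 1 lay just under the CD244-negative range and libraries 2 and 3 far below it. The T cell label was carried by Cd3d, a subunit of the T cell receptor (TCR) complex, with 22, 11 and 12 molecules against 10, 26.7 and 21. Zbtb16 had 1, 1 and 1 molecules against 4, 3 and 1, and Tbx21, the gene of T-bet, had 6, 7 and 1 against 5, 7 and 0. The constant region genes Trac, Trbc1 and Trbc2 were not analysed here.

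Xist, the RNA transcribed from the inactive X chromosome of female cells, was among the genes higher in the CD244-positive cells. Its molecules numbered 19, 3 and 29 there and 0 in each CD244-negative lung library. Transcripts of 4 Y-linked genes (Ddx3y, Eif2s3y, Kdm5d and Uty), chosen after Xist had been seen, summed to 4, 14 and 0 molecules in the CD244-positive and to 9, 7 and 8 in the CD244-negative libraries. Lung CD244-positive library 3 thus held Xist without Y-linked molecules, libraries 1 and 2 held both, and the CD244-negative lung libraries held Y-linked molecules alone. Both kinds were present in thymus, with 30 Xist and 26 Y-linked molecules in the CD244-positive and 39 and 40 in the CD244-negative group. In lung the CD244 fraction and this split in sex-linked RNA cannot be told apart in the comparisons that follow.

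Macrophage transcripts were abundant in the CD244-positive and scarce in the CD244-negative lung libraries. The 24 genes of the macrophage list summed to 85.4, 169.6 and 133 of every 10000 molecules in the CD244-positive libraries and to 2.69, 2.65 and 1.40 in the CD244-negative ones. In thymus the same list summed to 0.350 ± 0.348 (SD, n = 3) in CD244-positive and 0.502 ± 0.301 (SD, n = 3) in CD244-negative cells. Of the 24 genes, 23 had molecules in the CD244-positive lung group and 19 had none in the CD244-negative one. The lung groups did not overlap, with a two-sided exact permutation p of 0.1, the smallest that 3 against 3 libraries can give. Whether these transcripts came from macrophages among the sorted cells or from the iNKT cells was not tested.

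**Figure D1:**
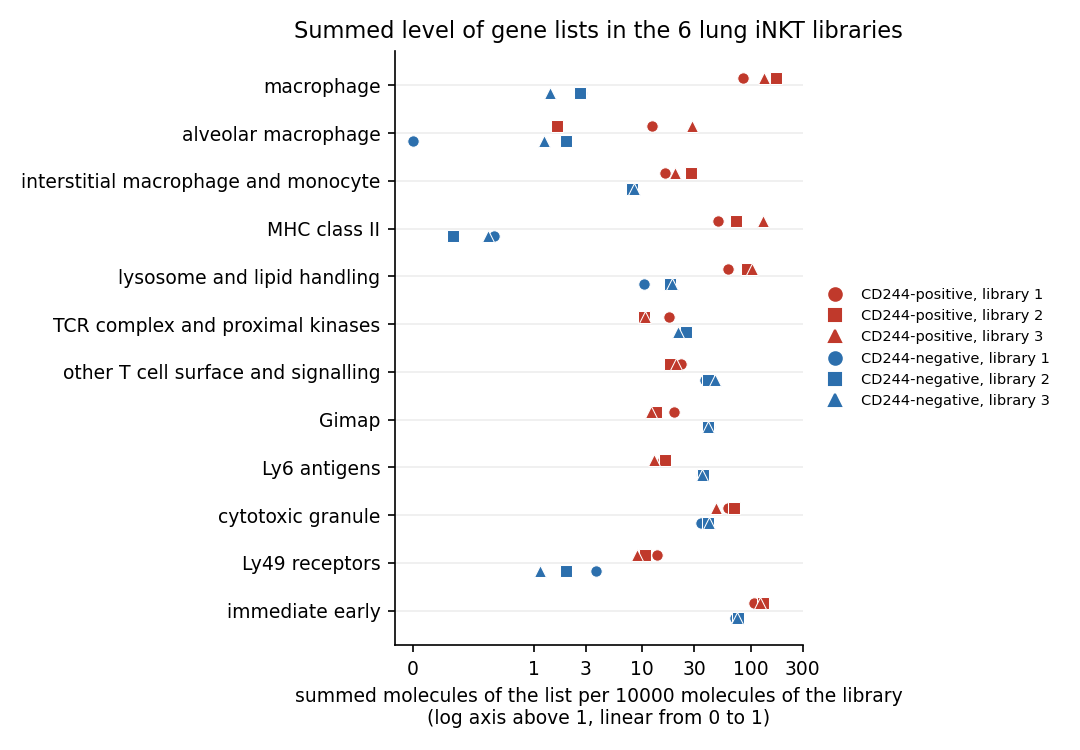
Summed molecules of 12 gene lists per 10000 molecules of the library (x axis, logarithmic above 1 and linear from 0 to 1) in the 3 CD244-positive (red) and 3 CD244-negative (blue) lung libraries, with one symbol per library number. The macrophage sum lay between 85.4 and 169.6 in the CD244-positive and between 1.40 and 2.69 in the CD244-negative libraries, while the TCR complex and Gimap sums lay lower in every CD244-positive library.

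Single macrophage genes showed the same order of levels. Apoe, the gene of the lipid carrier apolipoprotein E (chromosome 7, 19696109 to 19699188, build mm10), stood at 26.5, 61.0 and 46.3 units in the CD244-positive libraries and at 0 in each CD244-negative library. The 324 Apoe molecules make it at least 69.6-fold higher against a floor of 3 molecules over the CD244-negative group. Mrc1, the mannose receptor of tissue macrophages (chromosome 2, 14229392 to 14332057), stood at 15.8, 23.7 and 15.8 units against 0 in each CD244-negative library, at least 28.8-fold higher by the same floor. The complement genes C1qa, C1qb and C1qc, which together encode C1q, had 119, 133 and 141 molecules in the CD244-positive group and none in the other. CD244-positive library 1 was the lowest of the 3 for each C1q gene. Lyz2, which encodes lysozyme, had 17.5, 22 and 32 molecules, and Pf4, a chemokine of platelets that resident macrophages also hold, had 23, 36 and 14, both against 0 in every CD244-negative library. Selenop, a selenium carrier secreted by many cells, had molecules on both sides, with 66.5, 121 and 88 against 0, 5 and 2.

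In the test across all genes, the 17 macrophage genes that passed the filter on low values were all called higher, with a median log2 fold change of 3.37, where 5.61% of the 5138 tested genes were called higher and the median of all genes was -0.01. Without the CD244-positive lung libraries 15 of the 17 would not have passed that filter, so the count is a description and supports nothing. Every fold change here is on the scale of log2(value + 1) and understates the change of low genes. When the filter was applied again after leaving out CD244-positive library 1, 2 or 3, only 2 of the 17 were tested, because a gene had to exceed 1 unit in 3 libraries, and 2, 2 and 1 of them were called higher.

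The 2 kinds of lung macrophage did not follow each other across libraries. The alveolar list summed to 12.2, 1.65 and 28.8 per 10000 molecules in CD244-positive libraries 1, 2 and 3, against 0, 1.99 and 1.24 in the CD244-negative ones, and these groups overlapped (exact permutation p = 0.2). Chil3, a chitinase-like protein abundant in alveolar macrophages, was the only member of this list to pass the filter. It did so only through the CD244-positive lung libraries, so its call is a description and supports nothing. It stood at 11.5, 2.73 and 29.7 units against 0, 1.92 and 0 (log2 fold change 2.98 ± 0.44 SE, adjusted p = 1.4e-07), and the call was lost with a pseudocount of 5 (adjusted p = 0.0644). Ear2, an eosinophil-type ribonuclease gene of alveolar macrophages chosen after its values were seen, had 7.33, 0 and 24.5 molecules in the same order. Of the CD244-positive libraries, library 2 thus had the highest sum of the macrophage list and the lowest of the alveolar list, and it was also the one with the fewest Xist and the most Y-linked molecules.

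Genes of interstitial macrophages and monocytes summed to 16.3, 27.9 and 19.9 per 10000 molecules against 8.08, 7.96 and 8.39. Of the 9 tested members 8 were called higher and 1 lower (5.61% and 2.82% of all genes), but all 8 passed the filter only through the CD244-positive lung libraries, so their count supports nothing. F13a1, coagulation factor XIII subunit A, stood at 5.54, 8.19 and 7.15 units and Lyve1, a hyaluronan receptor of perivascular macrophages, at 5.54, 5.91 and 3.76, both at 0 in every CD244-negative library. Folr2, a folate receptor, was lower but present in each CD244-positive library at 2.77, 2.27 and 3.01 units. The fractalkine receptor gene Cx3cr1 was uneven, with 1.19, 10.5 and 3.38 units against 0. The member that fell was Ccr2, a chemokine receptor of monocytes that T cells also carry, at 5.15, 4.09 and 6.02 units against 15, 14.1 and 15.6 (log2 fold change -1.40 ± 0.28 SE, adjusted p = 0.000107). Ccr2 held 83 molecules in the thymus libraries, where F13a1, Lyve1 and Folr2 held none.

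MHC class II genes, which macrophages, dendritic cells and B cells use to show peptides to T cells, were close to absent from the CD244-negative libraries. Cd74, the invariant chain that guides class II molecules to the endosome, stood at 33.3, 54.6 and 101 units in the CD244-positive libraries and at 0, 0 and 0.601 in the CD244-negative ones. The alpha chain gene H2-Aa followed with 26.1, 35.3 and 63.4 units against 0, 0 and 0.601. The beta chain genes H2-Eb1 and H2-Ab1 had 208 and 192 molecules over the CD244-positive group and 1 each over the CD244-negative group. The loading factor gene H2-DMa was lower, at 1.19, 3.18 and 3.01 units against 0. All 5 tested members were called higher (5.61% of all genes), but all 5 passed the filter only through the CD244-positive lung libraries, so this count too supports nothing. The class II sum was 50.1, 72.8 and 129.6 per 10000 molecules against 0.673, 0.332 and 0.621, highest in CD244-positive library 3, while the macrophage sum was highest in library 2.

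Class II genes are switched on together by a complex on a shared promoter block, part of which is the Y box that NF-Y binds. RefSeq promoter sequences (GRCm38.p6, from 250 bases before to 50 after the start) were taken for 3 of the class II genes. These were H2-Aa, H2-Eb1 and H2-DMa, without Cd74 and H2-Ab1. The 8-letter core CTGATTGG was sought in these sequences on both strands. The sequences of the 2 chain genes are shown because both carry the core near their start, in capitals, 51 and 62 bases before the start of H2-Aa (chr17:34287774-34288073, minus strand) and H2-Eb1 (chr17:34305617-34305916, plus strand).
H2-Aa: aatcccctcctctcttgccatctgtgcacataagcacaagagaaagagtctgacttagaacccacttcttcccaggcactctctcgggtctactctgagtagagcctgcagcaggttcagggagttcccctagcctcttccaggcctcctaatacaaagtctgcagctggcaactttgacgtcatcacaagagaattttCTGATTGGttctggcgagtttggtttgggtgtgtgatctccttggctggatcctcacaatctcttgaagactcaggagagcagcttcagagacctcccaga
H2-Eb1: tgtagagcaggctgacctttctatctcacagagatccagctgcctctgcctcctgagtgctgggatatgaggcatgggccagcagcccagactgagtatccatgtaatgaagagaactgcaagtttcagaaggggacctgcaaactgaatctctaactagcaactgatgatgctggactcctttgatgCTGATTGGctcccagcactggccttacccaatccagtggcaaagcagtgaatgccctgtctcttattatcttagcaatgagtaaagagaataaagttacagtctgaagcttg
The core was in 2 of the 3 class II genes, not in H2-DMa, and in 4.70% of the 27025 genes with a promoter entry. A match of letters is a description of the sequence and not a bound site.

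Lysosomal and lipid-handling genes were raised with the macrophage markers. Their list summed to 62.0, 91.8 and 102.2 per 10000 molecules against 10.4, 17.9 and 18.6. Of 22 tested members 15 were called higher and none lower (5.61% and 2.82% of all genes). Of these 15, 7 passed the filter only through the CD244-positive lung libraries and 8 did so without them. Cst3, the protease inhibitor cystatin C (chromosome 2, 148871722 to 148875692), stood at 18.2, 30.7 and 39.1 units against 1.30, 1.92 and 3.00 (log2 fold change 3.27 ± 0.32 SE, adjusted p = 7.2e-14). The cysteine proteases Ctss and Ctsb reached 20.7 units in library 3 and 34.6 units in library 2, in that order, against at most 1.28 and 5.13 in any CD244-negative library. Lgmn, the gene of legumain, which cuts antigen and other cathepsins, had 44 molecules against none. Unlike the macrophage markers, this list was present in thymic iNKT cells, at 17.0 ± 0.675 and 16.6 ± 1.68 per 10000 molecules in the CD244-positive and CD244-negative groups (SD, n = 3).

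Markers of neutrophils, endothelium, dendritic cells, B cells and epithelium were low on both sides. S100a8, S100a9, Ly6g, Mpo, Camp and Ngp of neutrophils had 0 molecules in all 6 lung libraries, and so did Cdh5, Cldn5 and Vwf of endothelium. The dendritic cell list summed to 1.23, 1.18 and 2.14 per 10000 molecules in the CD244-positive libraries and to 0 in the CD244-negative ones. The B cell list reached 1.88 in CD244-positive library 2 and at most 0.337 in the others. Epithelial transcripts were alike, at 2.32 ± 1.13 and 2.44 ± 1.11 (SD, n = 3), led by Scgb1a1 of airway secretory cells with 16 and 14 molecules. The NK cell list was not low: it summed to 10.2, 15.8 and 13.9 against 4.38, 2.32 and 1.55. Of 5 tested members 3 were higher (5.61% of all genes), of which 1 passed the filter only through the CD244-positive lung libraries. The 3 were Tyrobp and Fcer1g, adaptors that macrophages also use, and Irf8, a factor of myeloid cells and B cells. Most of the sum came from Tyrobp (63 against 1 molecules) and Fcer1g (76.5 against 3). Ncr1 and Eomes had 1 molecule each against 0, Klri2 had 3 against 3, Klrc2 1 against 1 and Il18rap 27 against 17. Irf8 had 16 molecules against none, and its call was lost without CD244-positive library 2 (adjusted p = 0.0888, same genes tested). Fewer cells of a type and less RNA per cell cannot be told apart in such pooled libraries.

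Of the 5138 genes that exceeded 1 unit in at least 3 of the 12 libraries, 433 (8.43%) were called at an adjusted p under 0.05. In the CD244-positive lung cells 288 (5.61%) were higher and 145 (2.82%) lower. Of the 288, 172 passed the filter only through the CD244-positive lung libraries. Among the 4565 genes that passed without them, 116 were higher. The share of 5.61% given here for all genes includes the 172. Regardless of the test, 597 genes (11.6%) lay higher in every CD244-positive than in any CD244-negative lung library and 501 (9.75%) lower. The called genes were then divided by their molecules in the 6 thymus libraries, which do not enter the lung difference. Among genes higher in lung CD244-positive cells, 117 had 0 to 2 molecules in thymus, 52 had 3 to 11 and 119 had 12 or more. Among genes lower, the counts were 4, 9 and 132. The first class holds Il1b and Cxcl2, an inflammatory cytokine and a neutrophil-attracting chemokine. Il1b stood at 16.6, 8.64 and 10.2 units and Cxcl2 at 12.3, 14.6 and 16.5, against 0 in every CD244-negative library but for 0.601 units of Cxcl2 in library 3. Of the 146 tested genes in this class, 80.1% were called higher, since a gene nearly absent from thymus could pass the filter only through lung libraries, and 86 of the 117 had no molecule in the CD244-negative lung group.

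**Figure D2:**
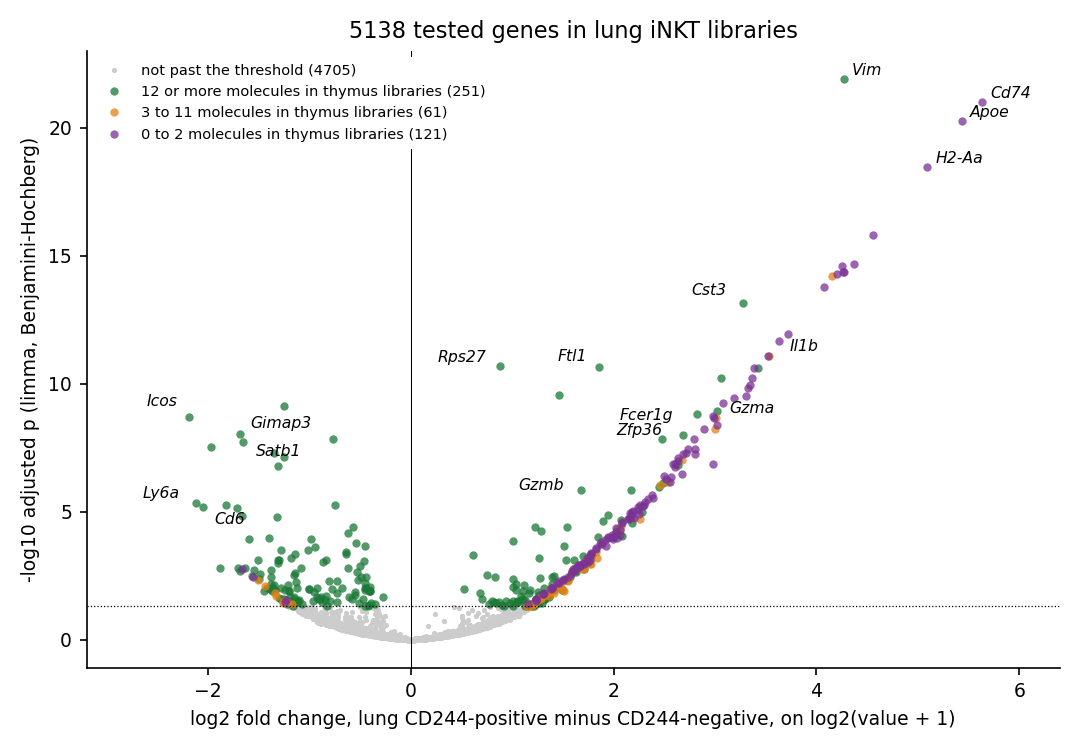
Log2 fold change between lung CD244-positive and CD244-negative cells (x axis) against -log10 of the adjusted p (y axis, limma) for 5138 genes, called genes coloured by their molecules in the 6 thymus libraries. The dotted line is an adjusted p of 0.05, and the 121 called genes with 0 to 2 thymus molecules lie almost all at the right, with Cd74, Apoe and H2-Aa among the farthest.

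The counts depended on the libraries used. In a fit of the 6 lung libraries alone, 236 of 3442 tested genes were higher and 108 lower. With the same 5138 genes tested, leaving out CD244-positive library 1, 2 or 3 gave 269, 235 and 233 genes higher and 146, 109 and 94 lower. With CD244-positive libraries 2 and 3 both left out, where the remaining one was assumed to vary like the other groups, 132 were higher and 30 lower.

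Genes of T cell identity pointed the other way, though few passed the test. The 7 genes of the TCR complex and its proximal kinases summed to 17.6, 10.3 and 10.5 per 10000 molecules in the CD244-positive libraries and to 24.2, 25.1 and 21.4 in the CD244-negative ones. All 7 fitted log2 fold changes were below 0, with a median of -0.65, and 1 passed, where 2.82% of all genes were called lower. That gene was Cd3d, at 8.71, 5.0 and 4.51 units against 6.51, 17.1 and 12.6 (adjusted p = 0.0194), whose groups overlapped. Its call was lost without CD244-positive library 2 or 3 (0.0969 and 0.152) or CD244-negative library 2 or 3 (0.245 and 0.0779), with the same genes tested, and in the fit of the 6 lung libraries alone (0.0694). Without CD244-positive library 1 there were 3 members lower (Cd3d, Cd3g and Zap70), and without CD244-positive library 2 or 3 or CD244-negative library 2 there were none. The molecules of this list per library were 86, 44 and 54 against 72, 75.7 and 69, so CD244-positive library 1 held more of them than any other lung library and libraries 2 and 3 held fewer.

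Among other T cell surface and signalling genes, 4 of 13 tested members fell and none rose (2.82% and 5.61% of all genes). The median log2 fold change was -0.70. Cd6, a receptor that tunes TCR signals (chromosome 19, 10789341 to 10830058), stood at 0.396, 0.910 and 1.5 units against 5.21, 8.98 and 6.61 (log2 fold change -2.05 ± 0.35 SE, adjusted p = 6.79e-06). Thy1, the CD90 antigen of T cells, stood at 5.15, 1.36 and 4.89 units against 9.77, 13.5 and 18.6. No value of a CD244-positive library reached the CD244-negative range in either gene. The adaptor Skap1 was also called lower, but not without CD244-positive library 1 (adjusted p = 0.136) or CD244-negative library 1 (0.105). Cd5, Cd4 and Cd28 had fold changes below 0 that did not pass.

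Genes of tissue residency were mixed, with 2 of 15 higher, Cd7 and Fgl2, and 1 lower, counts close to the 5.61% and 2.82% of all genes. The Cd7 call was lost without CD244-positive library 1 or 3 (adjusted p = 0.232 and 0.222) or CD244-negative library 1 (0.135), and that of Fgl2 without CD244-negative library 2 (0.202), with the same genes tested. Both were also lost in the fit of the 6 lung libraries alone (0.111 and 0.0553). The lower one was Cxcr6, whose molecules are given above (log2 fold change -1.89 ± 0.40 SE, adjusted p = 0.00163). With CD244-positive libraries 2 and 3 both left out, the log2 fold change of Cxcr6 was -0.36. Its call was lost in edgeR on 5 lung libraries, without CD244-positive library 2 (adjusted p = 0.187), and on all 6 (0.0645).

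Transcription factors of T cells changed in both directions. Of 19 tested, 4 fell (Gata3, Satb1, Ikzf3, Ets1) and 2 rose (Zeb2, Runx1), against 2.82% lower and 5.61% higher of all genes, and Zeb2 passed the filter only through the CD244-positive lung libraries. Satb1, a chromatin organiser of thymocytes and naive T cells (chromosome 17, 51736187 to 51833290), stood at 7.92, 7.28 and 6.77 units against 24.1, 25 and 26.4 (log2 fold change -1.66 ± 0.23 SE, adjusted p = 1.85e-08). The CD244-positive values spanned little more than 1 unit, and the groups lay far apart. Gata3, which directs type 2 cytokine programmes, stood at 3.56, 0.910 and 2.26 units against 13, 8.34 and 6.01 (-1.67 ± 0.30, 1.41e-05). Ets1 fell from 27.5 ± 2.77 to 13.8 ± 4.55 units (SD, n = 3). Zeb2, which acts in late effector T and NK cells and is also a macrophage identity factor, stood at 2.77, 5.46 and 8.27 units against 0 in every CD244-negative library. Runx1, likewise used in both lineages, stood at 5.54, 9.33 and 10.9 against 2.61, 1.28 and 4.21, a call lost without CD244-positive library 2 or 3 (adjusted p = 0.0615 and 0.103) or CD244-negative library 2 (0.110). The Ikzf3 call was lost under 5 of the 6 such omissions (adjusted p = 0.0731 to 0.170), all but that of CD244-positive library 2, and in the fit of the 6 lung libraries alone (0.0787). Zbtb16 and Tbx21 did not pass (adjusted p = 0.194 and 0.943).

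GTPases of the Gimap family, which support lymphocyte survival, were lower as a list. The 8 genes summed to 19.4, 13.4 and 12.1 per 10000 molecules against 41.1, 40.5 and 40.4. Of the 8, 4 fell (median log2 fold change -0.94), where 2.82% of all genes were called lower. When scaled to TCR genes, only 2 fell and 1 rose (Gimap8), where 16 of all 5138 genes were called lower and 1008 higher. Gimap6, at chromosome 6, 48701582 to 48708225, stood at 7.13, 4.09 and 1.5 units against 17.6, 19.2 and 15.6. Gimap3, from the same cluster (48764464 to 48770851), stood at 6.07, 4.09 and 4.51 units against 18.9, 16 and 18.6, and Gimap4 at 10.7, 10.9 and 9.40 against 32.6, 27.6 and 24.0. These 3 genes were clear of overlap and kept their calls without any single lung library. The call of Gimap7 (adjusted p = 0.035) was lost under 4 of those 6 omissions (CD244-positive 1 or 3, CD244-negative 2 or 3, adjusted p = 0.0904 to 0.204), and Gimap1, Gimap5, Gimap8 and Gimap9 did not pass.

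Ly6 surface antigens gave a similar picture, with 3 of 4 tested members lower (2.82% of all genes). Their sums were 15.4, 16 and 12.8 per 10000 molecules against 35.7, 36.2 and 35.4. Ly6a, the Sca-1 antigen, was at 0, 1.36 and 0.752 units against 7.16, 8.02 and 3.60. Ly6e had 14.3, 10.9 and 12.4 units against 33.2, 25.7 and 35.4, and Ly6c2, which marks memory-like T cells, 15, 17.7 and 10.9 against 26.1, 34.0 and 26.1. These are members of a family with close copies, so reads may be split between them, and Ly6c1 had the same direction without passing (adjusted p = 0.0839).

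Among co-stimulatory receptors, Icos and Izumo1r fell and the other 5 tested did not pass, where 2.82% of all genes were called lower. Icos, the inducible co-stimulator (chromosome 1, 60977927 to 61000320), stood at 7.13, 3.18 and 4.14 units against 26.7, 25.7 and 21.6. It had the most negative fold change of the genes named here (log2 fold change -2.19 ± 0.28 SE, adjusted p = 1.94e-09), and its molecules came to 36 against 117. Izumo1r, the folate receptor 4 of regulatory and anergic T cells, rested on 2 against 12 molecules (ratio 0.107, exact 95% interval 0.0117 to 0.482), and its call was lost without CD244-positive or CD244-negative library 3 (adjusted p = 0.0728 and 0.117).

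Of 14 cytokine receptor genes, 3 fell and none rose at equal totals (2.82% and 5.61% of all genes). When scaled to TCR genes, none fell and 3 rose, where 1008 of all 5138 genes were called higher and 16 lower. The 3 that fell at equal totals belong to the receptors that signal through the common gamma chain. Il2rb, the beta chain shared by the IL-2 and IL-15 receptors, stood at 10.3, 10.5 and 6.39 units against 26.1, 16 and 16.2. Il2rg, the common gamma chain itself, stood at 6.73, 6.82 and 4.51 against 12.4, 12.8 and 18.6. Il21r stood at 1.98, 3.18 and 1.5 against 8.47, 6.42 and 10.2 (log2 fold change -1.55 ± 0.37 SE, adjusted p = 0.00185). Il7r and Il4ra had log2 fold changes of -0.06 and -0.63 and did not pass (adjusted p = 0.935 and 0.357). Of the survival genes, Bcl2 stood at 2.77, 3.64 and 1.5 units against 7.82, 7.06 and 8.41 (-1.31 ± 0.30, 0.000794). Bcl2l11, which encodes its antagonist BIM, also fell, from 15.7 ± 2.03 to 7.57 ± 2.73 units (SD, n = 3), but not without CD244-positive library 2 or 3 (adjusted p = 0.062 and 0.101) or CD244-negative library 3 (0.0542). Of 12 cell cycle genes 1 rose and 1 fell, near the shares of all genes, and the list summed to 23.4 ± 1.39 against 25.7 ± 6.88 per 10000 molecules (SD, n = 3). Ccnd2, the cyclin that moves lymphocytes out of rest, fell from 21.3 ± 3.91 to 7.94 ± 1.27 units. Top2a, a topoisomerase of dividing cells, rose from 0.417 ± 0.362 to 3.29 ± 0.705 units, but passed the filter only through the CD244-positive lung libraries.

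**Figure D3:**
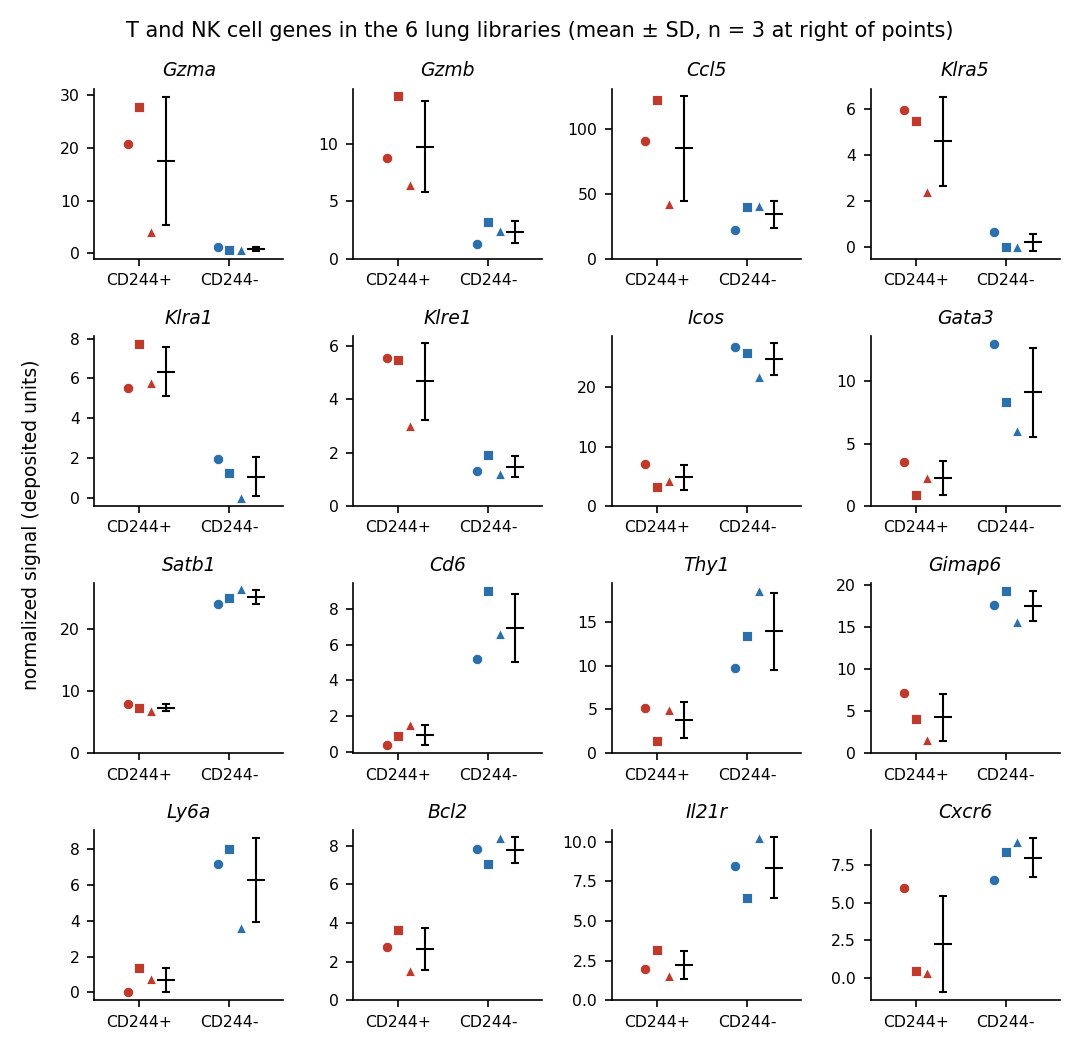
Normalized signal in deposited units (y axis, starting at or just below 0) of 16 T and NK cell genes in each of the 3 CD244-positive (red) and 3 CD244-negative (blue) lung libraries, where circle, square and triangle are libraries 1, 2 and 3 and the bars at the right of the points give the mean and SD. Satb1 lay between 6.77 and 7.92 units in the CD244-positive and between 24.1 and 26.4 in the CD244-negative libraries, while Cxcr6 and Gzma differed widely among CD244-positive libraries.

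How far these lower levels reach depends on what the libraries are scaled to. At equal totals, RNA that only one fraction holds lowers every other gene of that fraction. When each library was scaled instead to its TCR complex and proximal kinase genes, which rest on 44 to 86 molecules in a lung library, the median log2 fold change of all genes moved from -0.01 to 0.50. Then 1008 genes were higher and 16 lower. This scaling multiplied the CD244-positive lung libraries by 1.03 to 1.76 and the CD244-negative ones by 0.725 to 0.849, which moves fold changes upward. All 288 genes called higher at equal totals were still called so, which that direction favours and which is no check of them. Of the 145 genes lower at equal totals, 16 stayed lower, 119 were not called and 10 became higher. The 16 were Camk4, Cd2bp2, Cd6, Cxcr6, Dcaf15, Dusp10, Gata3, Gbp7, Gimap3, Gimap6, Icos, Ly6a, Pla2g16, Satb1, Snord118 and Thy1. On this scale, where the median gene lay at 0.50, Icos was at -1.38 (adjusted p = 0.000549), Satb1 at -0.80 (0.0319) and Ly6a at -1.5 (0.00229). Ccr2, Ccnd2, Bcl2 and Gimap4 kept fold changes below 0 that no longer passed (adjusted p = 0.222, 0.198, 0.242 and 0.173), and no cytokine receptor was called lower while 3 were called higher. The lists with lower calls alone at equal totals then held 2 lower and 1 higher (Gimap), 1 lower (Ly6), 1 lower (co-stimulatory), 2 lower (other T cell genes) and 1 higher (survival). The part of macrophage RNA in the lower T cell levels was not tested beyond these scalings. Scaling to all genes outside the 14 lists of other cells gave 317 genes higher and 136 lower. Those lists hold a small part of each library, such as 129.3 of every 10000 molecules for the macrophage list in the CD244-positive group. This scaling could therefore change little, and it does not measure the part of macrophage RNA.

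**Figure D4:**
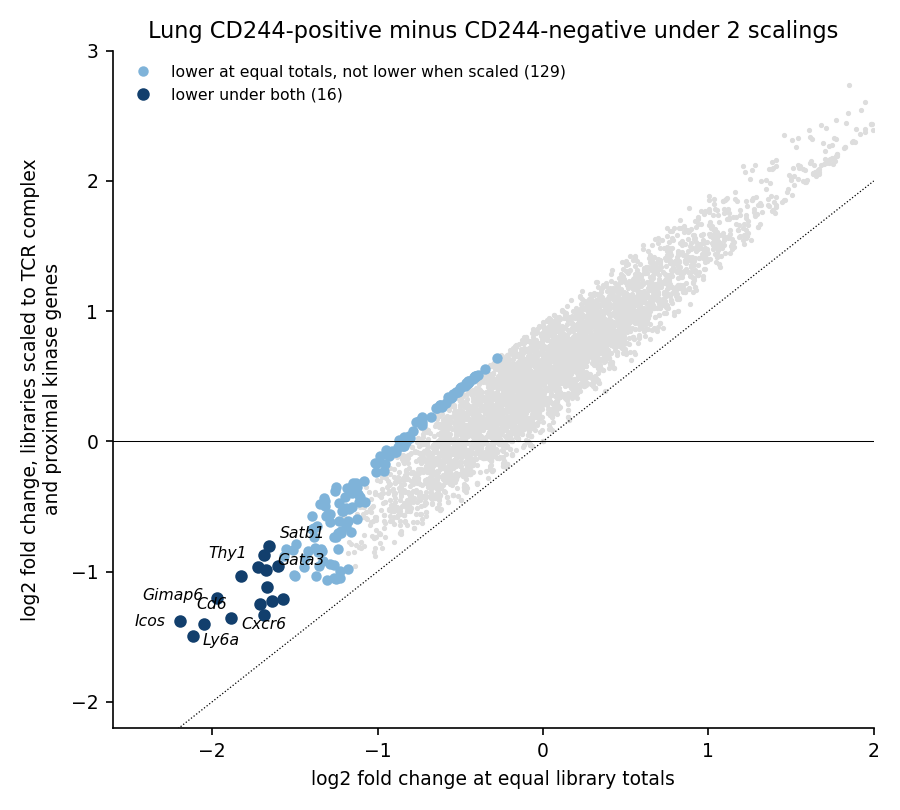
Log2 fold change of each tested gene at equal library totals (x axis, which leaves out the genes farthest to the right) against its value after scaling the libraries to their TCR complex and proximal kinase genes (y axis). Dark points mark the 16 genes lower under both scalings, light blue points the 129 lower at equal totals alone, and nearly all points lie above the dotted line of equality.

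Cytotoxic genes were among the T and NK cell genes that were higher. Their list summed to 61.0, 69.8 and 47.6 per 10000 molecules against 35.0, 40.1 and 41.0. Of 11 tested members 4 rose while 1 fell (5.61% and 2.82% of all genes). Gzma, the protease granzyme A (chromosome 13, 113093825 to 113100981), stood at 20.6, 27.7 and 4.14 units against 1.30, 0.642 and 0.601 (log2 fold change 3.01 ± 0.38 SE, adjusted p = 1.17e-09). CD244-positive library 3 held far less Gzma than the other two, yet lay above every CD244-negative library. Gzmb, granzyme B, stood at 8.71, 14.1 and 6.39 units against 1.30, 3.21 and 2.40 (1.68 ± 0.27, 1.38e-06). Both calls stood without any single lung library. The other members that rose, Ctsc and Lamp1, are lysosomal: Ctsc, which activates granzymes and is also a macrophage protease, stood at 11.9, 18.2 and 19.2 units against 1.95, 1.92 and 0. Fasl, the gene of Fas ligand, fell, at 4.75, 6.82 and 4.14 units against 9.77, 12.2 and 10.2 (adjusted p = 0.0215), a call lost without CD244-positive library 1 or 3 (0.0655 and 0.126) or CD244-negative library 2 (0.0892). Nkg7, a granule protein gene, did not pass (adjusted p = 0.511).

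Ccl5, a chemokine stored by memory T and NK cells (chromosome 11, 83525778 to 83530518), had the most molecules of these genes, 608 against 163. It stood at 90.7, 122 and 41.7 units against 22.1, 39.8 and 40.3, so that CD244-positive library 3 lay barely above the CD244-negative range. The call was marginal (log2 fold change 1.21 ± 0.34 SE, adjusted p = 0.0485) and was lost without CD244-positive library 1 (0.145), CD244-negative library 3 (0.0532), thymus CD244-positive library 1 (0.0535) or any thymus CD244-negative library (0.0696 to 0.0759), and in the fit of the lung libraries alone (0.238). Ifng and Il4, the cytokines iNKT cells are known for, were nearly absent, at 0.792 and 0 units in the CD244-positive and 1.02 and 0.214 in the CD244-negative group.

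Receptors of the Ly49 family, which bind MHC class I on other cells, were higher in each CD244-positive library. The 14 genes summed to 13.6, 10.5 and 8.94 per 10000 molecules against 3.70, 1.99 and 1.14. Of 5 tested members 3 rose (median log2 fold change 1.54), where 5.61% of all genes were called higher. Klra5 stood at 5.94, 5.46 and 2.38 units against 0.651, 0 and 0, and Klra1, which encodes Ly49A, at 5.54, 7.73 and 5.76 against 1.95, 1.28 and 0. Klra7 (Ly49G) stood at 6.66, 2.27 and 3.76 against 1.95, 0.642 and 0, and its call was lost without CD244-positive library 1 (adjusted p = 0.0983) or CD244-negative library 3 (0.075). Klra9 and Klra3 did not pass (adjusted p = 0.0572 and 0.909). Some Klra values were fractions of a molecule, so the family's near-identical copies may share reads. With all 6 lung libraries in edgeR, 1 member passed the filter and was called higher.

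The other NK receptors divided by their use outside lymphocytes. Of 13 tested members 4 rose (5.61% of all genes), of which 2 passed the filter only through the CD244-positive lung libraries. Among the 4, Fcer1g, Tyrobp and Fcgr3 encode adaptors and an Fc receptor that macrophages also carry. Fcer1g stood at 5.94, 11.9 and 13.3 units against 0, 1.28 and 0.601, Tyrobp at 6.73, 11.4 and 7.90 against 0.651, 0 and 0, and Fcgr3 at 7.13, 5.91 and 8.27 against 0. Klre1, a lectin-like receptor of NK cells, was the fourth, at 5.54, 5.46 and 3.01 against 1.30, 1.92 and 1.20, a call lost without CD244-positive library 1 or 2 (adjusted p = 0.0645 and 0.0703). The inhibitory receptor gene Klrc1 had the opposite sign and did not pass (log2 fold change -0.80 ± 0.27 SE, adjusted p = 0.0523). No member of the SLAM family, to which CD244 belongs, was called: of 6 tested, Slamf6 had a fold change of -1.01 and Cd48, the ligand of CD244, of 0.71 (adjusted p = 0.118 and 0.249).

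**Figure D5:**
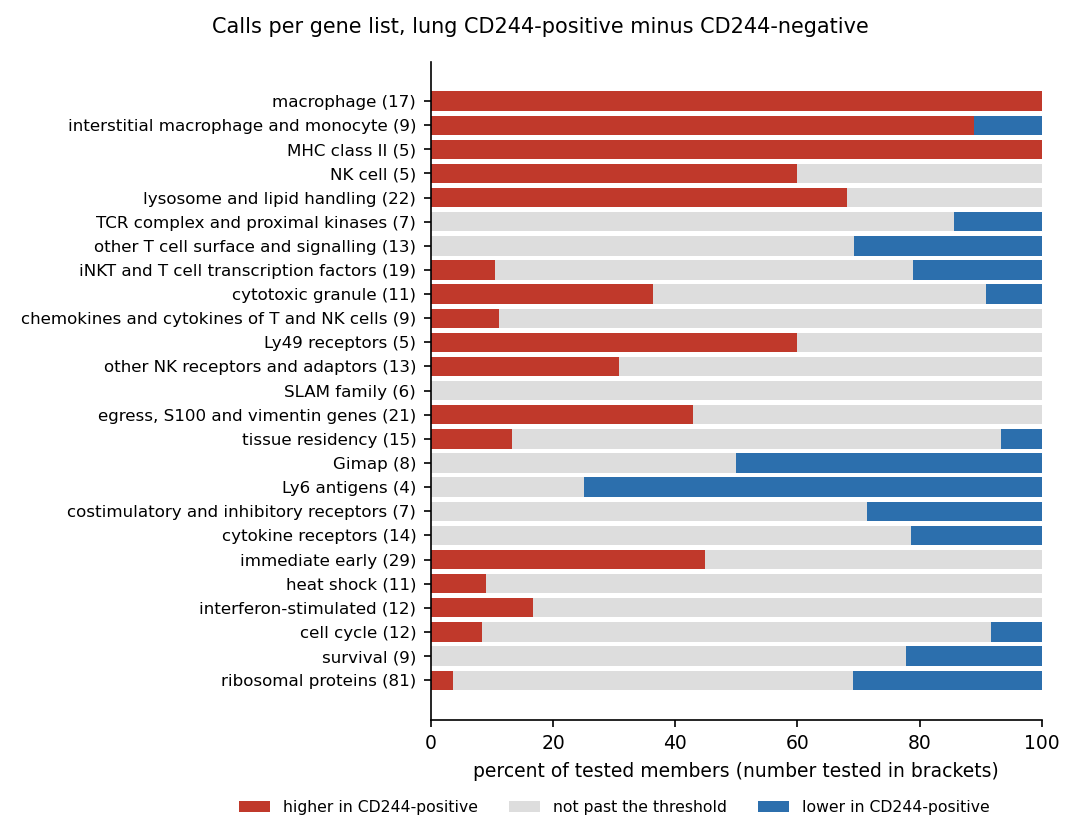
Share of the tested members of each gene list (x axis, percent, with the number tested in brackets) that were higher (red), lower (blue) or not past the threshold (grey) in lung CD244-positive cells, at equal library totals. All tested macrophage and MHC class II genes were higher, of which 15 of 17 and 5 of 5 passed the filter only through the CD244-positive lung libraries, while the Gimap, Ly6, co-stimulatory and cytokine receptor lists held lower calls alone.

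Egress, S100 and vimentin genes, a list tied to motile effector cells, summed to 94.4, 97.6 and 98.7 per 10000 molecules against 37.4, 46.1 and 45.4. Of 21 tested members, 9 rose and none fell (5.61% and 2.82% of all genes), with a median log2 fold change of 0.52. Vim, the intermediate filament of motile cells (chromosome 2, 13573927 to 13582826), stood at 30.9, 36.8 and 35.0 units against 0.651, 1.28 and 0.601, with 252 against 4 molecules (ratio 40.6, exact 95% interval 15.7 to 150). S100a4 and S100a6, calcium-binding proteins, had 61 against 7 and 90 against 16 molecules. Crip1, a LIM protein of effector lymphocytes, stood at 16.6, 18.2 and 17.7 units against 6.51, 7.70 and 6.61 (17.5 ± 0.799 and 6.94 ± 0.659, SD, n = 3). The galectins Lgals1 and Lgals3 rose as well, and Lgals3, known from macrophages, ran from 3.56 to 13.5 units across CD244-positive libraries. Most of these genes are also held by macrophages, and the part of macrophage RNA in them was not tested. Klf2 and its target S1pr1, which govern exit from tissue, did not pass (log2 fold changes 0.78 and 0.46).

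Immediate early genes, which stimulated or freshly dissociated cells induce within minutes, were higher in part. The list summed to 106, 129.1 and 121.1 per 10000 molecules against 71.1, 75.6 and 74.5, and both lung fractions lay above the thymus groups (22.4 ± 1.26 and 23.2 ± 0.627, SD, n = 3). Of 29 tested members, 13 rose and none fell (5.61% and 2.82% of all genes), but 8 of the 13 passed the filter only through the CD244-positive lung libraries. The other 5 rose among 18 members that passed without those libraries, where 116 of all 4565 such genes were called higher. Fos stood at 17.4, 18.7 and 17.7 units against 1.95, 0 and 1.20 (log2 fold change 3.34 ± 0.40 SE, adjusted p = 1.15e-10). Outside the CD244-positive group it exceeded 1 unit in lung only in CD244-negative libraries 1 and 3, and its thymus difference was 0. The Fos call is therefore a description and supports nothing. Zfp36, which speeds the decay of cytokine mRNA, stood at 11.1, 11.4 and 13.9 against 1.30, 1.28 and 0.601, and Fosb, Atf3, Socs3 and Rhob had 1 or 2 molecules each over the CD244-negative group. Junb and Ier2, from the same list, did not pass (-0.38 and -0.07), so the list did not move as one. Of 11 heat shock genes, 1 rose (Hspa1a), a share near that of all genes (5.61%), and it passed the filter only through the CD244-positive lung libraries. The heat shock sums were alike, 51.9 ± 1.11 against 50.5 ± 2.07 (SD, n = 3).

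The ferritin chains, which store iron, were abundant in both fractions and higher in the CD244-positive one. Ftl1 stood at 42.1, 43.2 and 59.8 units against 9.12, 14.8 and 14.4 (log2 fold change 1.85 ± 0.21 SE, adjusted p = 2.29e-11). Fth1 stood at 57.1, 49.2 and 84.2 against 25.4, 18.6 and 22.2 (1.46 ± 0.18, 2.73e-10).

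Ribosomal protein genes made up 17.2%, 14.3% and 15.5% of the molecules in the CD244-positive libraries and 18.4%, 18.8% and 18.6% in the CD244-negative ones. Of 81 tested, 25 fell and 3 rose (2.82% and 5.61% of all genes), with a median log2 fold change of -0.30. The direction turned over with the TCR scaling, under which 57 rose and none fell. The ribosomal median was then 0.59, close to the 0.50 of all genes, of which 1008 of 5138 were called higher. Quantile normalization left 8 lower. Rps27 was apart from the rest, at 147.5, 114.9 and 93.7 units against 59.7, 62.9 and 66.1 (log2 fold change 0.88 ± 0.10 SE, adjusted p = 1.99e-11). Rps27rt, a near-identical copy chosen after its values were seen, moved the other way (32.4 against 51.2 units), so reads may have been split differently between the copies and both values are uncertain. Pabpc1, the poly(A)-binding protein, fell from 155 ± 27.7 to 90.8 ± 17.5 units and Tmsb10, an actin-binding peptide, from 74.5 ± 3.45 to 44.5 ± 9.57 (SD, n = 3), and both of these also turned above 0 with the TCR scaling.

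The same fractions from thymus show how much of the lung difference was shared. In thymus, 21 genes (0.409%) differed between CD244-positive and CD244-negative cells, 17 higher and 4 lower. Of the 17, 13 were also higher in lung (Ccl5, Cd7, Efhd2, Fcer1g, Gzma, Ifitm2, Klra1, Klra5, Klre1, Lgals1, S100a4, S100a6 and Vim), where 5.61% of all genes were. Ahnak, Ifngr1, Klf2 and Sp4 were not called. Of the 4, Icos, Izumo1r and Ly6a were also lower in lung, where 2.82% of all genes were, and Lef1 was not called. The lung calls of Ccl5, Cd7, Klre1 and Izumo1r were lost without certain single libraries, as given above. Fcer1g, Vim and others of these genes are also held by macrophages. Gzma differed by a log2 fold change of 3.01 in lung and 3.43 in thymus, Klra5 by 2.17 and 2.29, Klre1 by 1.17 and 1.37, and Icos by -2.19 and -1.23. The difference between the tissues did not pass for any of these 4 (adjusted p = 0.818, 0.959, 0.921 and 0.245), which does not show that the effects are equal.

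The test of the lung difference against the thymus difference called 168 genes (3.27%). Vim differed in both tissues but more in lung (log2 fold changes 4.27 and 2.0, interaction adjusted p = 2.77e-05), and Ccl5 less in lung (1.21 and 3.61, 0.0163). Apoe and the C1q genes had no thymus molecule. Of the lower T cell genes, Gimap6 (-1.97 in lung, 0.13 in thymus, 9.44e-05), Gimap3 (-1.69 and -0.31, 0.00371), Thy1 (-1.72 and -0.09, 0.0113), Gata3 (-1.67 and -0.20, 0.0303) and Bcl2 (-1.31 and 0.29, 0.012) differed between tissues. Satb1 (-1.66 and -0.68) and Cd6 (-2.05 and -0.45) did not pass (adjusted p = 0.0818 and 0.0575). The tissues were deposited with different totals and without a common scale, and leaving out lung CD244-positive library 1, 2 or 3 lowered the count of 168 to 95, 51 and 48.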

How the data were processed

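RNA of 100 sorted cells per library was reverse transcribed with a molecular barcode in the primer, template-switched and amplified, per the labels' protocols. STAR and the mouse build mm10 are named in the submitters' processing notes. The authors deposited 1 table of 24781 gene symbols holding a normalized signal, in which 1 molecule has the same worth for every gene of a library. Of the nonzero lung values, 94.9% to 95.9% were whole multiples of that constant (tolerance 1e-06). A count test was therefore not the main test.

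Values were tested as log2(value + 1) with limma 3.58.1 (R 4.3.3, trend and robust, two-sided, Benjamini-Hochberg, threshold 0.05) in 1 fit of 4 groups over 12 libraries, on 5138 genes above 1 in at least 3 libraries. edgeR 4.0.16 (quasi-likelihood) was run on recovered molecules of 5 lung libraries, without CD244-positive library 2, and later on all 6. On the 5 libraries it tested 531 genes and called 83 higher and 41 lower. Other alternatives were other filters, pseudocounts, scalings, thinning and leaving out libraries. The limma test was also run on simulated counts with the same spread in every group and changes only in well-detected genes. That setting differs from the CD244-positive lung libraries, so it does not check the calls of genes with few molecules. Floors use 3 molecules over a group, and floors and intervals (exact binomial, 95%) cover counting error only. Gene positions are from GENCODE M21.

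The libraries and gene lists were chosen with earlier results of these data known. Genes were named by a rule: among non-overlapping calls, smallest p first, up to 15 higher and near absent in thymus, 15 higher and present there and 20 lower, with the gate genes, all tested Ly49 and MHC class II genes and up to 6 of each other list. Members of lists named outside it were chosen after their values were seen. Some genes the rule names are not reported here. Mitochondrial genes were not analysed here. Replicate numbers did not pair the lung libraries.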

Additional observations from a re-analysis of the deposited data

Results flagged for a closer look

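A gene is given here when the CD244 difference in lung and that in thymus differed in limma's test of the difference itself, at an adjusted p under 0.05 over 5138 genes. The value is the lung log2 fold change minus the thymus one, on the log2(value + 1) scale. All are among the genes named by the rule, and 3.27% of all tested genes were called in this test.

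The difference was above 0 where the CD244-positive cells had the higher relative level in lung. Among macrophage and interstitial macrophage genes, it was 5.43 for Apoe, 4.81 for Selenop, 4.27 for Cd14, 4.26 for Mrc1, 4.26 for C1qc, 4.20 for C1qb, 4.08 for C1qa, 3.38 for Lyz2, 3.37 for Pf4, 2.98 for F13a1, 2.98 for Chil3, 2.58 for Lyve1, 2.43 for Cx3cr1, 1.89 for Ms4a6c and 1.88 for Folr2. Among MHC class II genes, it was 5.48 for Cd74, 5.09 for H2-Aa, 4.56 for H2-Eb1, 4.37 for H2-Ab1 and 1.93 for H2-DMa. Among lysosomal and iron-storing genes, it was 3.29 for Cst3, 3.09 for Ctss, 2.86 for Ctsz, 2.79 for Lgmn, 2.74 for Ctsb, 2.68 for Ctsc, 1.95 for Ftl1, 1.68 for Lamp1 and 1.66 for Fth1. Among cytokine, adaptor and transcription factor genes that myeloid cells also use, it was 3.71 for Cxcl2, 3.63 for Il1b, 3.53 for Marcks, 2.90 for Fcgr3, 2.44 for Zeb2, 2.35 for Tyrobp, 2.19 for Rtn4 and 2.04 for Irf8. Among immediate early genes, it was 3.34 for Fos, 3.09 for Zfp36, 2.71 for Atf3, 2.68 for Fosb, 2.40 for Socs3 and 2.21 for Rhob. Among the remaining positive ones, it was 2.93 for Xist, 2.27 for Vim, 2.24 for Top2a and 0.92 for Rps27.

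It was below 0 for the following genes. Among T cell surface, Gimap and Ly6 genes, it was -2.10 for Gimap6, -1.78 for Klrc1, -1.63 for Thy1, -1.59 for Ly6c2, -1.38 for Gimap3 and -1.09 for Ly6e. Among receptors and chemokines, it was -2.40 for Ccl5, -1.99 for Cxcr6, -1.75 for Il21r, -1.65 for Ccr2 and -1.20 for Ifngr1. Among regulators and survival genes, it was -1.60 for Bcl2, -1.47 for Gata3 and -1.44 for Bcl2l11. Among the others, it was -1.87 for Snord118, -1.40 for D17H6S56E-5, -1.19 for Vps37b, -0.81 for Pabpc1 and -0.69 for Rpl13a. Klrc1 and Ifngr1 were not called in lung itself. Macrophage markers were at or near 0 in both thymus groups, so for many of the positive values the thymus difference rests on few or no molecules.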

How the results depend on the processing

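Against 288 genes higher and 145 lower, other settings gave the following counts. Scaling to TCR genes gave 1008 higher and 16 lower. Thinning to 29696 molecules gave 161 and 68. edgeR gave 83 and 41 on 5 lung libraries and, added after seeing the data, 96 and 49 on all 6, on 531 and 542 genes. A filter of 5 units in 3 libraries gave 115 higher among 922 genes. Leaving out both CD244-positive libraries 2 and 3 gave 34 and 26, and 132 and 30 with the same genes tested, an alternative also chosen after seeing the data. Leaving out each library in turn gave 100 to 288 higher and 79 to 146 lower. Without CD244-positive library 1 the lower count was 144, and without library 3 and with the same genes tested it was 94. The lowest counts came without a CD244-positive lung library, where the filter removed genes seen only there. The interaction count of 168 ranged from 48 to 152 in the same way and was 185 with both tissues at 1 common total. The lung-only fit, quantile normalization, library weights, both pseudocounts, no filter and scaling to genes outside the lists of other cells kept both counts within 1.5 times.

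With the replicate number as a block, 281 genes were higher and 147 lower, and no call of a named gene changed. Libraries of the same number did not deviate together (correlations -0.01, 0.01 and -0.01), so the numbers gave no pairing. Signs reversed under the TCR scaling for Pabpc1 (0.15), Tmsb10 (0.16), Rpl13a (0.34) and Rpl12 (0.28), where the median of all genes was 0.50. At 29696 to 51436 molecules per lung library, genes of a few molecules, Cd244 among them, were below what could be compared.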
